A study of Mus musculus with 12 samples.

Results

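The Serpina3 genes of the mouse are a row of closely related serine protease inhibitor (serpin) genes on chromosome 12. The 5 genes described here, Serpina3f, Serpina3g, Serpina3i, Serpina3m and Serpina3n, were chosen by name from 32699 gene symbols in RNA-seq data of splenic B cells, and were picked because Serpina3f and Serpina3g were lower in the cells labelled as CHD4 knockout. All 5 were in the count table, as 9 of its 63759 transcript rows, and rows of the same gene were summed. The data came from 12 libraries in 4 groups of 3: KO 48 hr (replicates 10 to 12), WT 48 hr (7 to 9), KO 0 hr (4 to 6) and WT 0 hr (1 to 3). KO and WT are the genotype labels, CHD4 being an ATP-dependent chromatin remodeller of the nucleosome remodelling and deacetylase complex. The labels do not say which allele, Cre or strain was used. Cells of the 48 hr groups had been cultured for that time with LPS (lipopolysaccharide, a bacterial product that activates B cells) at 10 µg/ml and the cytokine IL-4 at 25 ng/ml, and those at 0 hr were unstimulated. The labels do not say that replicates came from separate animals, so the spread behind each p-value is that of these libraries and may be technical.

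Serpins inhibit proteases by offering a reactive loop as bait, which the protease cuts and by which it is trapped. Humans have a single SERPINA3 gene, encoding alpha-1-antichymotrypsin, whereas in the mouse the gene was duplicated into a family whose members differ most in that loop. Serpina3g, also called Spi2A, acts inside leukocytes as an inhibitor of cathepsins and is known as a target of NF-kB, and Serpina3n is a secreted inhibitor of granzyme B and of neutrophil proteases that is known as an acute-phase and glucocorticoid-induced gene. Family members respond to interferon gamma and to IL-6 family cytokines, which act through STAT proteins.

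All members lie on the plus strand within 199.8 kb (positions from GENCODE M21, mm10). Serpina3f is at chr12:104214544-104221129, Serpina3g at chr12:104236245-104241939, Serpina3i at chr12:104263122-104269372, Serpina3m at chr12:104338486-104394257 and Serpina3n at chr12:104406729-104414329. The annotated span of Serpina3m starts at the same base as that of Serpina3k. RefSeq promoter windows on GRCm38.p6, from 250 bases before to 50 bases after the annotated start, were on hand for 4 of the 5 members and not for Serpina3m. They are shown to describe the members, and no link between their letters and the expression patterns was tested. Capitals mark 2 motifs searched on both strands, the palindromic gamma-activated site TTCNNNGAA, which STAT dimers bind, and the NF-kB motif.
Serpina3f, chr12:104214294-104214593: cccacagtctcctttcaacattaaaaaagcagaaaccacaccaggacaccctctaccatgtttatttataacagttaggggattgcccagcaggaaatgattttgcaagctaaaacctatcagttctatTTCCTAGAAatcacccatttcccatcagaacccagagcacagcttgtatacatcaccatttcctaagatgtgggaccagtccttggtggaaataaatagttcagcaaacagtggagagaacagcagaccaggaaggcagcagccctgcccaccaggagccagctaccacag
Serpina3g, chr12:104235897-104236196: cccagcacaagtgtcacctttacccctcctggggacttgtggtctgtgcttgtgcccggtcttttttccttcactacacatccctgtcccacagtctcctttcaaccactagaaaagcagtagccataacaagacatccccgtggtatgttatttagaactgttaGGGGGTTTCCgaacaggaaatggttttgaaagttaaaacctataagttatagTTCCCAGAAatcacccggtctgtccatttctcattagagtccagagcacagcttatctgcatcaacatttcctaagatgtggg
Serpina3i, chr12:104262872-104263171: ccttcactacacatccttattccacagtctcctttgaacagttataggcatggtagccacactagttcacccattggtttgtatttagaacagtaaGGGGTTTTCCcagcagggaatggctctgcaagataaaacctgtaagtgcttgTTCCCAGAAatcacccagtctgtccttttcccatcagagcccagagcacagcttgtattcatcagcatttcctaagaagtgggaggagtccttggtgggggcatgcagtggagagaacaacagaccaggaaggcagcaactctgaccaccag
Serpina3n, chr12:104406458-104406757: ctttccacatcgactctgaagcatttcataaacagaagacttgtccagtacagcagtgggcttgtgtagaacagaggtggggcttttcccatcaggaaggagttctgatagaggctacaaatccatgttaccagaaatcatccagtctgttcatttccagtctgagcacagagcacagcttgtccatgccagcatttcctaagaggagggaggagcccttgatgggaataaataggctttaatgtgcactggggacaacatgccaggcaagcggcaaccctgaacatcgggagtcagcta

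The Serpina3f window held TTCCTAGAA, whose first base was at position -121 from the start. From a second annotated start of Serpina3f, whose window is not shown, the same site was at -210. The Serpina3g window held TTCCCAGAA at -33 and the NF-kB match GGGGGTTTCC at -85. Positions count from the RefSeq start of each window. For Serpina3g and Serpina3n that start lies before the GENCODE start given above, so positions are not directly comparable between genes. The Serpina3i window held the same TTCCCAGAA at -102 and GGGGTTTTCC at -154, so that the order of both motifs was the same as in Serpina3g. The matches share no bases with each other, and no match to either motif was in the Serpina3n window. Of all 32851 promoter windows of this length, 8.30% held a gamma-activated site match and 8.46% an NF-kB match. The interferon-stimulated response element core GAAANNGAAA, present in 3.44% of windows, was in none of the 4. The windows of Serpina3f, Serpina3g and Serpina3i were 83.3% to 84.0% identical to each other over their aligned bases, and each was 74.1% to 78.1% identical to that of Serpina3n. A match is a description of these letters, and binding was not measured.

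The libraries held 39 M to 53.2 M estimated counts, and 19125 genes passed a filter on low counts. The B cell markers Cd79a, Cd79b, Ms4a1, Cd22, Pax5, Ebf1 and Cr2 summed to 4870 to 5630 CPM (counts per 1000000 counts of scaled library size) in KO 48 hr, 5350 to 5910 CPM in WT 48 hr, 6850 to 8860 CPM in KO 0 hr and 6580 to 8440 CPM in WT 0 hr. Chd4, the targeted gene, was at 38.8 to 74.7 CPM in KO 48 hr against 96.1 to 123 CPM in WT 48 hr. Its level at 0 hr did not separate the labels, at 70.6 to 100 CPM in KO and 68.1 to 99.4 CPM in WT, and a gene total need not show a deletion of single exons. Sex-linked genes also differed with the genotype label: Xist was at 0.856 to 1.59 CPM in all libraries labelled KO against 75.4 to 293 CPM in those labelled WT, and the Y-linked Ddx3y at 91.8 to 139 CPM against 20.8 to 28.3 CPM. Every WT library thus held counts of both Xist and a Y-linked gene, and the reason was not tested. Genotype and this difference in sex-linked genes cannot be told apart in any value below that sets KO against WT.

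Serpina3g was the most abundant member in all 4 groups and Serpina3f came next. Per kilobase of the longest annotated transcript, Serpina3g averaged 114 CPM in KO 48 hr, 523 in WT 48 hr, 31.7 in KO 0 hr and 99.3 in WT 0 hr. On the same scale Serpina3f averaged 6.90, 21.6, 0.982 and 6.41 CPM per kilobase in those groups, and Serpina3i 0.0703, 1.37, 0.0334 and 0.217. Outside a single group each, Serpina3n had at most 18 counts over a group and Serpina3m at most 2. A limit of 3 counts over a group corresponds to 0.026 CPM in either 48 hr group, 0.016 CPM in KO 0 hr and 0.018 CPM in WT 0 hr.

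**Figure D1:**
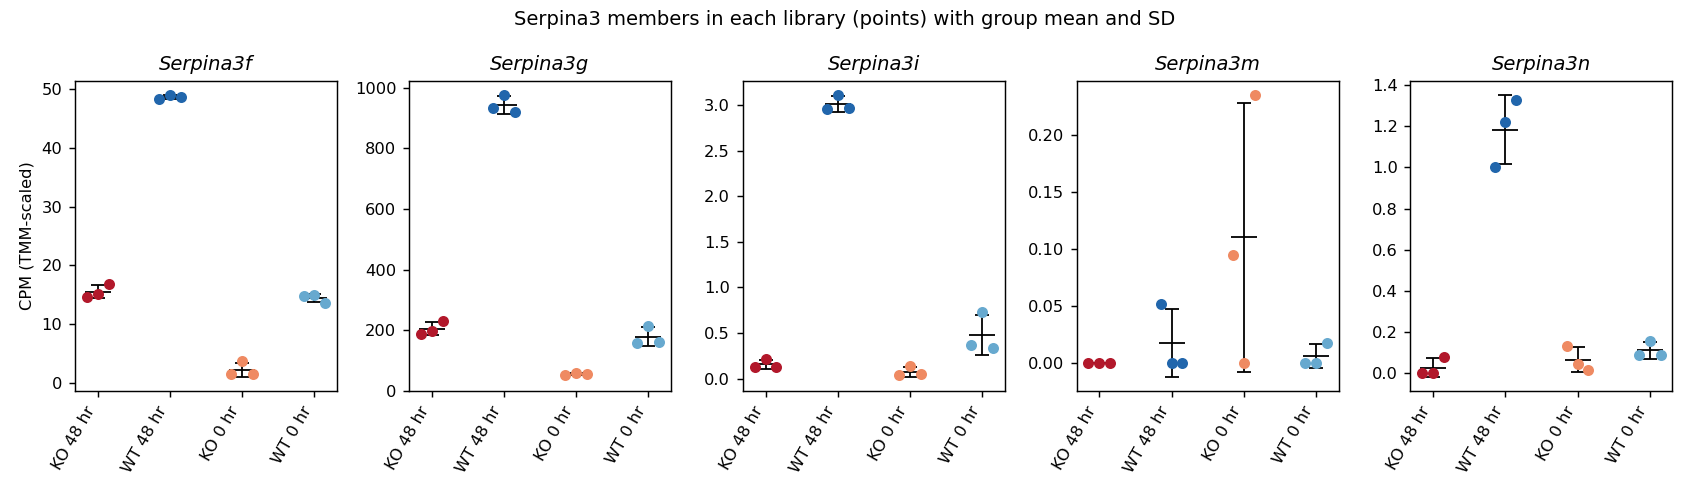
CPM of each Serpina3 member (vertical axes, a scale of its own for each gene) in the 3 libraries of each group, with the group mean and SD as bars. WT 48 hr was the highest group for Serpina3f, Serpina3g, Serpina3i and Serpina3n, and KO 0 hr the lowest for Serpina3f and Serpina3g.

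Serpina3g, the intracellular cathepsin inhibitor, had 189, 199 and 230 CPM in KO 48 hr, against 934, 976 and 919 CPM in WT 48 hr. At 0 hr it had 53.1, 60.5 and 57.8 CPM in KO libraries, and 159, 216 and 163 CPM in WT libraries. No library labelled KO reached the lowest WT library of its time point, and in scaled CPM the stimulated KO libraries overlapped the unstimulated WT libraries. Its means were 206 ± 21.4 CPM in KO 48 hr, 943 ± 29.4 CPM in WT 48 hr, 57.1 ± 3.77 CPM in KO 0 hr and 179 ± 31.8 CPM in WT 0 hr (SD, n = 3 each).

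Serpina3f had 14.6, 15.2 and 16.8 CPM in KO 48 hr, against 48.3, 49.0 and 48.6 CPM in WT 48 hr. In unstimulated cells its values were 1.52, 3.62 and 1.48 CPM in KO libraries, and 14.7, 15 and 13.6 CPM in WT libraries. As for Serpina3g, the stimulated KO libraries overlapped the unstimulated WT libraries in scaled CPM, and the highest and lowest groups lay apart from these. KO 0 hr replicate 5 stood above the other two libraries of its group. The means were 15.5 ± 1.11 CPM in KO 48 hr, 48.6 ± 0.336 CPM in WT 48 hr, 2.21 ± 1.22 CPM in KO 0 hr and 14.4 ± 0.695 CPM in WT 0 hr (SD, n = 3 each).

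Serpina3i was far less abundant and had 5, 8 and 5 counts in KO 48 hr, 115, 115 and 116 counts in WT 48 hr, 2, 9 and 3 counts in KO 0 hr, and 21, 37 and 19 counts in WT 0 hr. The WT libraries lay above the KO libraries at both times, and the KO libraries of the 2 times overlapped. All WT libraries and no KO library reached the minimum of the low-count filter, so that Serpina3i entered the fit through WT. Its means were 0.155 ± 0.049 CPM in KO 48 hr, 3.01 ± 0.0818 CPM in WT 48 hr, 0.0736 ± 0.0564 CPM in KO 0 hr and 0.478 ± 0.22 CPM in WT 0 hr (SD, n = 3 each).

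Serpina3n, the secreted granzyme B inhibitor, had 0, 0 and 3 counts in KO 48 hr, 39, 45 and 52 counts in WT 48 hr, 7, 3 and 1 counts in KO 0 hr, and 5, 8 and 5 counts in WT 0 hr. The WT 48 hr libraries, at 1.18 ± 0.165 CPM (SD, n = 3), stood above all others, and through them alone the gene passed the filter on low counts. Serpina3m did not pass. It had 5, 0 and 16 counts in KO 0 hr replicates 4, 5 and 6, against 0, 0 and 1 count in the WT 0 hr libraries, and at 48 hr its counts were 0 in all KO libraries and 2, 0 and 0 in the WT libraries. Its direction at 0 hr was the opposite of that of Serpina3f, Serpina3g and Serpina3i, and 2 of 3 KO libraries carried it. By summed counts Serpina3m had 21 counts in KO 0 hr against 1 count in WT 0 hr, which is under the limit of 3 counts, a ratio of 18.6 with a 95% interval for counting error alone of 2.99 to 770. Without KO 0 hr replicate 6 its KO 0 hr mean was 0.0463 CPM, against 0.11 CPM with it.

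At 48 hr against 0 hr, 2 of the 5 members were called higher in KO cells and 3 in WT cells. Serpina3n is not counted in WT, since it entered the fit through its WT 48 hr counts alone and had to be higher there. This comparison was not used to choose the genes, so it was tested, with edgeR's quasi-likelihood test on all 12 libraries and p-values adjusted by Benjamini and Hochberg over the 19125 genes. It was also a common outcome: 33.0% of all tested genes were called higher at 48 hr in KO and 37.7% lower, and in WT 33.0% were called higher and 40.9% lower, at an adjusted p below 0.05. Over all tested genes the median log2 change was -0.30 in KO and -0.39 in WT.

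Serpina3g was 3.60-fold higher at 48 hr than at 0 hr in KO (log2 1.85, SE 0.13, edgeR adjusted p = 2.1e-08) and 5.27-fold higher in WT (log2 2.40, SE 0.13, adjusted p = 1.7e-09). Serpina3f was 6.99-fold higher in KO (log2 2.81, SE 0.27, adjusted p = 5.3e-07) and 3.37-fold higher in WT (log2 1.75, SE 0.25, adjusted p = 2.7e-05). For both genes all 3 libraries at 48 hr lay above all 3 at 0 hr in each genotype, as they did for 33.0% of all tested genes in KO and 34.9% in WT. In scaled CPM both genes reached in KO at 48 hr a level that overlapped that of unstimulated WT cells. This overlap and the folds over time depend on the scaling factors. These were 0.723 to 0.766 at 48 hr and 1.28 to 1.42 at 0 hr. Before scaling, Serpina3g had 7526 to 8874 counts in KO 48 hr against 9050 to 10915 in WT 0 hr. Serpina3f had 575 to 646 against 757 to 835. Library totals were 51.1 M to 53 M in KO 48 hr and 39 M to 41.7 M in WT 0 hr.

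For Serpina3i in KO the log2 change was 1.02, with a 95% interval of -0.17 to 2.21 (edgeR adjusted p = 0.11), and did not pass the test. It passed in a fit without KO 0 hr replicate 5, the library of that group with 9 counts, at log2 1.84 (adjusted p = 0.015). No KO library reached the filter's minimum for Serpina3i, so both fits in KO rest on few counts. It entered the fit through WT libraries of both times. In WT it was 6.30-fold higher at 48 hr (log2 2.66, SE 0.42, adjusted p = 6.9e-05). Serpina3n in KO had 3 counts at 48 hr and 11 at 0 hr, a ratio of 0.432 with a 95% counting interval of 0.0775 to 1.64 (adjusted p = 0.32). Without KO 48 hr replicate 12, which held all 3 counts, the fit called it lower at 48 hr in KO (adjusted p = 0.026). That fit sets no count at 48 hr against 11 at 0 hr, 7 of them in KO 0 hr replicate 4. The size of the change then depends on the prior count. In WT Serpina3n had 136 counts at 48 hr against 18 at 0 hr, a ratio of 10.8 with a counting interval of 6.59 to 18.8, which is given with no test. Serpina3m, untested, had no count at 48 hr in KO against 21 at 0 hr, of which 16 were in KO 0 hr replicate 6, and in WT 2 counts at 48 hr against 1 at 0 hr.

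**Figure D2:**
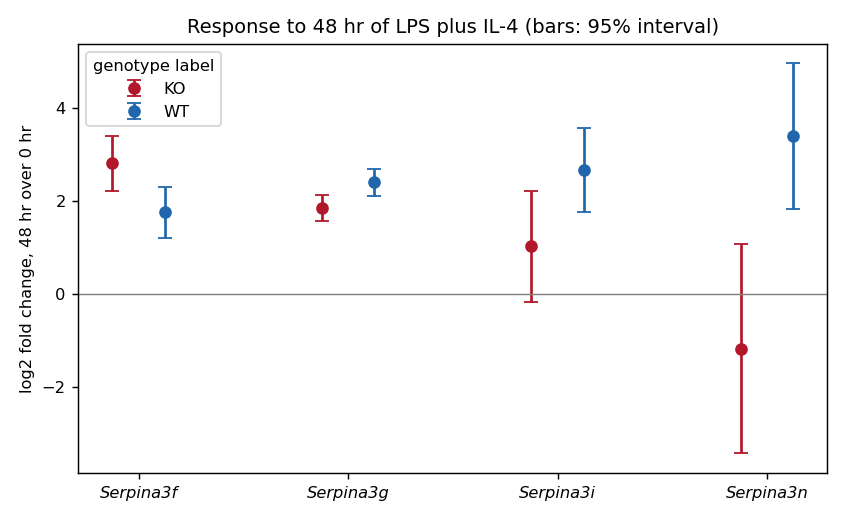
Log2 fold change at 48 hr over 0 hr (vertical axis) for the 4 members that passed the filter, with KO and WT side by side and 95% intervals as bars. In KO the intervals of Serpina3i and Serpina3n include 0, and in WT those of Serpina3f, Serpina3g and Serpina3i lie above 0. Serpina3n passed the filter only through WT 48 hr, which set its direction in WT.

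The change over time in KO minus that in WT was 1.05 (SE 0.36) for Serpina3f, -0.55 (SE 0.18) for Serpina3g, -1.64 (SE 0.71) for Serpina3i and -4.58 (SE 1.26) for Serpina3n, on the log2 scale. This difference uses the genotype values by which the genes were chosen and was not tested. Serpina3f had the larger change in KO and Serpina3g in WT. Serpina3n entered the fit through WT 48 hr alone and Serpina3i through WT libraries alone, so no direction is read from their values.

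The genotype difference is the one that chose the genes, so its values are a description with no test. At 48 hr the log2 difference of KO from WT was -1.65 (SE 0.25) for Serpina3f, -2.19 (SE 0.13) for Serpina3g and -4.27 (SE 0.48) for Serpina3i. WT 48 hr thus exceeded KO 48 hr 3.14-fold, 4.58-fold and 19.2-fold for these genes. Serpina3i entered the fit through its WT libraries alone, where it was high, so that its direction was favoured by the filter. It had 18 counts in KO 48 hr against 346 in WT 48 hr. For Serpina3n the 3 counts of KO 48 hr and the 136 of WT 48 hr gave a ratio of 0.0217, with a 95% counting interval of 0.00441 to 0.0647. At 0 hr the log2 difference of KO from WT was -2.70 (SE 0.27) for Serpina3f, -1.65 (SE 0.13) for Serpina3g, -2.63 (SE 0.49) for Serpina3i and -0.81 (SE 0.81) for Serpina3n. The order of the genes thus differed between the times, with Serpina3f more reduced than Serpina3g at 0 hr and less at 48 hr. KO and WT libraries did not overlap for 4 of the 5 members at 48 hr and 3 of the 5 at 0 hr, with KO lower in each. Of all tested genes, KO libraries lay wholly below the WT libraries for 9.53% and wholly above for 10.7% at 48 hr, and for 7.92% and 7.02% at 0 hr. By edgeR 0.544% were called lower and 1.47% higher in KO at 48 hr, and 0.429% lower and 0.680% higher at 0 hr. These shares stand for reference and nothing is read from them, since the difference chose the genes.

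Single libraries moved some of these values. Without KO 0 hr replicate 5 the log2 difference of KO from WT at 0 hr was -3.26 for Serpina3f and -3.44 for Serpina3i. Without KO 48 hr replicate 12 the KO 48 hr group had no count of Serpina3n. For Serpina3g no single library moved the difference beyond -2.28 to -2.14 at 48 hr or -1.73 to -1.49 at 0 hr.

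Markers of other cells changed as well and are given for the same libraries. Monocyte and macrophage markers summed to 19.0 to 40.5 CPM in KO 48 hr, 15.8 to 18.9 CPM in WT 48 hr, 160 to 461 CPM in KO 0 hr and 152 to 300 CPM in WT 0 hr. Of these 8 markers all were called lower at 48 hr than at 0 hr in both genotypes. None was called between genotypes by edgeR or DESeq2, and at an unadjusted p below 0.05 edgeR gave 2, both higher in KO, at 48 hr and 0 at 0 hr. Neutrophil markers summed to 0.309 to 132 CPM in KO 0 hr against 25.1 to 54.6 CPM in WT 0 hr, and to under 1 CPM at 48 hr. T cell markers summed to 8.94 to 10.1 CPM in KO 48 hr, 10.5 to 11.9 CPM in WT 48 hr, 16.2 to 38.1 CPM in KO 0 hr and 19.0 to 26.9 CPM in WT 0 hr. At 48 hr these sums were lower in KO without overlap. No T cell marker was called between genotypes by edgeR or DESeq2, and at an unadjusted p below 0.05 edgeR gave 1, higher in KO, at 48 hr. Stroma and endothelium markers summed to 46.8 to 48 CPM in KO 48 hr, 60.4 to 65.9 CPM in WT 48 hr, 132 to 179 CPM in KO 0 hr and 151 to 201 CPM in WT 0 hr, so that at 48 hr they too were lower in KO without overlap. None of these 5 markers was called between genotypes by edgeR, which at an unadjusted p below 0.05 gave 1 higher and 1 lower in KO at 48 hr and 0 at 0 hr, and DESeq2 called 1 lower in KO at 48 hr. Erythroid markers summed to 122 to 1580 CPM in KO 0 hr against 275 to 393 CPM in WT 0 hr. Plasma cell markers summed to 769 to 985 CPM in KO 48 hr against 651 to 665 CPM in WT 48 hr. At 0 hr they summed to 551 to 887 CPM in KO and 411 to 550 CPM in WT, again higher in KO without overlap. The plasma cell markers Prdm1 and Sdc1 were called higher in KO at 48 hr, and Sdc1 at 0 hr. Of 7 NK cell markers edgeR called 1, Prf1, higher in KO at 48 hr. DESeq2 called 1 higher at each time. NK cell markers summed to 3.89 to 12.7 CPM in KO 48 hr, 3.86 to 4.4 CPM in WT 48 hr, 15.8 to 29.9 CPM in KO 0 hr and 13.4 to 17.8 CPM in WT 0 hr. For dendritic cell markers the sums were 12.9 to 18.4, 8.64 to 13.4, 28.2 to 68 and 33.6 to 48.2 CPM in those groups. No marker in the file was at 0 in every library. The part of these cells in the genotype differences was not tested, and in bulk libraries fewer cells of a type and less RNA per cell cannot be told apart.

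The 2 transcript rows of Serpina3g behaved differently. Row uc029rxs.1 had 104, 110 and 143 CPM in KO 48 hr, against 840, 861 and 834 CPM in WT 48 hr. At 0 hr it had 33.0, 40.1 and 40.9 CPM in KO libraries, and 131, 177 and 126 CPM in WT libraries. Row uc007oxa.2 had 85.0, 88.5 and 87.0 CPM in KO 48 hr, against 94.3, 115 and 84.8 CPM in WT 48 hr. In unstimulated cells its values were 20.1, 20.4 and 16.9 CPM in KO libraries, and 28.3, 38.3 and 36.5 CPM in WT libraries. At 48 hr the genotypes lay far apart on uc029rxs.1 and overlapped on uc007oxa.2, and at 0 hr they were apart on both rows.

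The log2 difference of KO from WT at 48 hr was -2.85 for uc029rxs.1 and -0.21, with a 95% interval of -0.56 to 0.14, for uc007oxa.2. At 0 hr the values were -1.92 and -0.83. The share of Serpina3g counts on uc007oxa.2 was thus 37.8% to 44.9% in KO 48 hr against 9.23% to 11.8% in WT 48 hr, and 29.3% to 37.8% in KO 0 hr against 17.8% to 22.4% in WT 0 hr. Both rows rose with stimulation. In a fit of 36629 transcripts, uc007oxa.2 rose by 2.18 in KO (edgeR adjusted p = 1.5e-06) and by 1.56 in WT (adjusted p = 1.6e-05) on the log2 scale. In the same fit uc029rxs.1 rose by 1.65 in KO (adjusted p = 1.4e-05) and by 2.59 in WT (adjusted p = 5e-07). The structure of these rows was not analysed here, and the authors' estimator divides reads that match both.

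**Figure D3:**
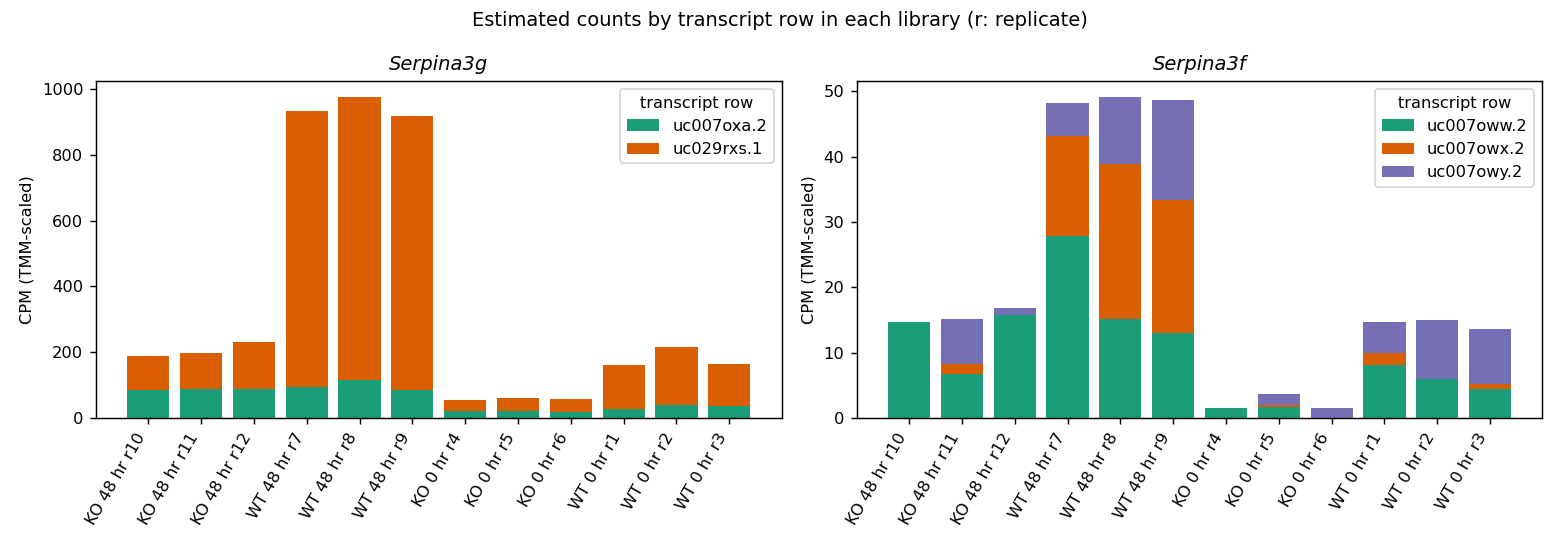
CPM by transcript row (stacked bars) of Serpina3g and Serpina3f in each library. The uc007oxa.2 part of Serpina3g has nearly the same height in KO 48 hr and WT 48 hr, whereas the parts of Serpina3f change from replicate to replicate.

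The 3 rows of Serpina3f could not be told apart in the same way. The share of uc007oww.2, variant 1 in the authors' description, ran from 0% to 100% within the 3 KO 0 hr libraries. Row uc007owx.2, variant 3, had 0, 1.61 and 0 CPM in KO 48 hr against 15.4, 23.7 and 20.4 CPM in WT 48 hr. At 48 hr the sum over rows varied little between replicates while its parts varied widely. Of the 3 rows in both genotypes, only uc007oww.2 in KO passed the test over time in the transcript fit (log2 3.55, edgeR adjusted p = 0.014).

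The members share sequence with each other and with other genes of the family. Of the 50-base windows of the longest Serpina3g transcript, 16.0% were also in another Serpina3 transcript, most often Serpina3h. The shares were 10.7% for Serpina3f, 15.4% for Serpina3i, 19.1% for Serpina3m, mostly with Serpina3k, and 6.90% for Serpina3n. The longest transcripts of Serpina3f, Serpina3g and Serpina3i were 88.6% to 89.6% identical over their aligned bases, and all other pairs 80.6% to 83.6%. Counts of Serpina3m and Serpina3i, which were low, are therefore uncertain, since a read of a relative could be assigned to them.

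Serpina3h, a transcribed pseudogene between Serpina3g and Serpina3i and not a member, also had fewer counts in KO. It had 1 count in KO 48 hr against 126 in WT 48 hr, a ratio of 0.00779 with a 95% counting interval of 0.000196 to 0.0442. At 0 hr it had no count in KO against 33 in WT, a ratio of up to 0.105 by the same interval. In 3 of 3 WT 48 hr libraries and 2 of 3 WT 0 hr libraries, and in no KO library, it reached the minimum of the low-count filter, so that it entered the fit through the group where it was high and no p-value is given for it. In the transcript of Serpina3h 24.4% of the 50-base windows were shared, most with Serpina3i. How reads were divided between Serpina3h and Serpina3i was not tested. Nor was it for the far more abundant Serpina3g, which shared 8.67% of its windows with Serpina3h.

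Serpina3h is set aside here, since it entered the fit through the group where it was high. Of the 16 non-member genes tested within 1 Mb of the Serpina3f start, no other was called in either genotype comparison, by edgeR or DESeq2. At an unadjusted p below 0.05 edgeR gave 2 of the 16 lower in KO at 48 hr, and 2 lower and 2 higher at 0 hr. Those lower include Serpina3h at each time, from which nothing is read. The median log2 difference of KO from WT over the 16 genes, Serpina3h included, was -0.025 at 48 hr and -0.21 at 0 hr, against 0.01 and 0 over all tested genes. Dicer1, the microRNA-processing nuclease, was at -0.07 and -0.06, and Ifi27l2a, an interferon-induced gene, at -0.45 and -0.53 (adjusted p = 0.35 at both times).

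**Figure D4:**
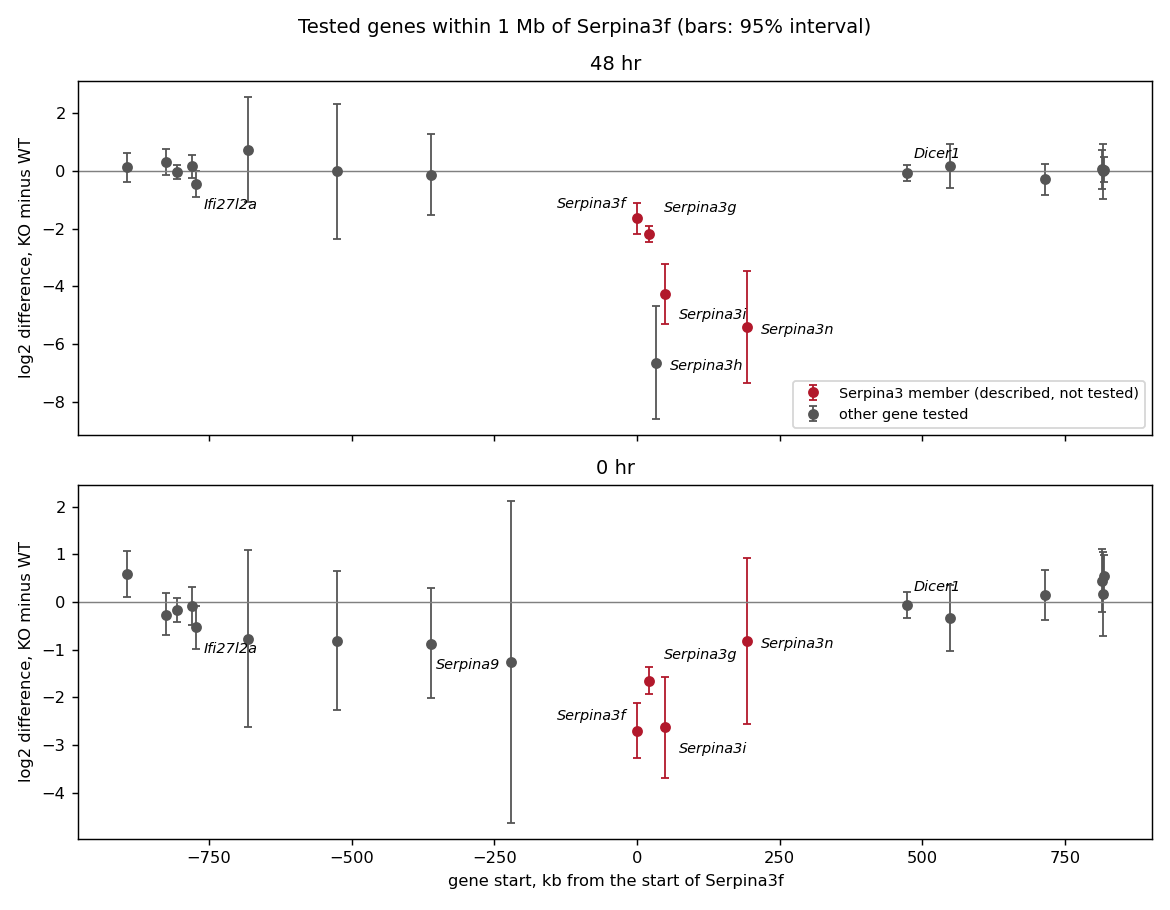
Log2 difference of KO from WT at 48 hr and at 0 hr (vertical axes) for tested genes by distance of their start from that of Serpina3f in kb, with 95% intervals as bars and genes with no count in KO or in WT at that time left out. The 4 members shown run from -5.39 to -1.65 at 48 hr and from -2.70 to -0.81 at 0 hr, values that are described and not tested since this difference chose them. Among flanking genes at 0 hr, the intervals of Asb2 and Glrx5 lie above 0 and that of Ifi27l2a below 0, though none was called.

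Of 20 other serpins of the same chromosomal cluster, 4 passed the low-count filter: Serpina3h, Serpina9, Serpina1a and Serpina1f. With Serpina3h set aside as above, none was called between the genotypes, by edgeR at an adjusted or unadjusted p below 0.05 or by DESeq2. The median log2 difference of all 4, Serpina3h included, was -0.95 at 48 hr and -1.06 at 0 hr. For it, genes with no count in a group were set at the limit of 3 counts. It rests in part on Serpina3h and on Serpina9, whose 10 counts in WT 48 hr were all in a single library, so nothing is read from it. Serpina1a and Serpina1f were at -0.14 and -0.02 at 48 hr, where Serpina9 had no count in KO. At 0 hr Serpina1a, Serpina1f and Serpina9 were at -0.87, -0.81 and -1.25. Over time none of the 4 was called in KO, by edgeR at an adjusted or unadjusted p below 0.05 or by DESeq2. In WT Serpina3h averaged 1.10 CPM at 48 hr against 0.206 CPM at 0 hr, Serpina1a 0.113 CPM against 0.383 CPM and Serpina1f 0.0261 CPM against 0.18 CPM, levels at which the filter itself bears on which genes were tested.

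Of 19 tested serpins elsewhere in the genome, edgeR called 1 higher in KO at each time and none lower. At an unadjusted p below 0.05 it gave 4 higher and 1 lower at 48 hr, and 2 higher and 1 lower at 0 hr, and DESeq2 called 4 higher and none lower at 48 hr and 1 in each direction at 0 hr. The call by both tools at both times was Serpine2, a secreted inhibitor of thrombin and urokinase, at 6.23 ± 2.01 CPM in KO 48 hr against 1.32 ± 0.246 CPM in WT 48 hr (SD, n = 3 each, log2 2.24, edgeR adjusted p = 0.00083). It was at 11.1 ± 1.89 CPM in KO against 3.11 ± 0.472 CPM in WT at 0 hr (log2 1.83, adjusted p = 0.0033). Their median log2 difference was -0.17 at 48 hr and 0.21 at 0 hr.

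Over time 7 of these 19 serpins rose and 11 fell in KO, and 6 rose and 9 fell in WT. Serpinb9, the intracellular inhibitor of granzyme B, rose to 86.2 ± 2.89 CPM in KO 48 hr against 11.2 ± 0.794 CPM in KO 0 hr (log2 2.95, edgeR adjusted p = 1.9e-09) and to 78.8 ± 6.49 CPM in WT 48 hr against 16.2 ± 4.28 CPM in WT 0 hr (log2 2.28, adjusted p = 1.7e-08). Between the genotypes its log2 difference of KO from WT was 0.13 at 48 hr (adjusted p = 0.77) and -0.54 at 0 hr (adjusted p = 0.15, or 0.034 by DESeq2). Serpinb6b, another intracellular serpin, also rose, by 3.2 in KO and 2.2 in WT on the log2 scale. Serpinb1a, an inhibitor of neutrophil elastase, was lower at 48 hr by log2 values of -1.85 in KO and -2.54 in WT.

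Of 24 listed cathepsins, granzymes and granule proteases, 20 were tested. The list was drawn up by protease family and not by known inhibition by a serpin. At 48 hr edgeR called 1, higher in KO, and at 0 hr none. At an unadjusted p below 0.05 it gave 5 higher and 1 lower in KO at 48 hr, and 4 higher and 0 lower at 0 hr, and DESeq2 called 1 higher at 48 hr and 2 higher at 0 hr. Ctsl, encoding cathepsin L, was at 11.9 ± 5.63 CPM in KO 48 hr against 3.66 ± 0.855 CPM in WT 48 hr (log2 1.70, edgeR adjusted p = 0.029). That call ended in 5 of 12 fits that left out a library, those without replicate 10 (adjusted p = 0.12) or 11 (0.16) of KO 48 hr or replicate 7 (0.15), 8 (0.084) or 9 (0.14) of WT 48 hr. Ctsb, encoding cathepsin B, the protease best known as a target of Serpina3g, was at a log2 difference of 0.47 at 48 hr (adjusted p = 0.38) and 0.79 at 0 hr (adjusted p = 0.16, or 0.039 by DESeq2). The median log2 difference over the list was 0.20 at 48 hr, or 0.28 over 18 genes with those at 0 in a group bounded or left out, and 0.21 at 0 hr. Over time 2 proteases rose and 7 fell in KO, and 3 rose and 10 fell in WT. Ctsz, encoding cathepsin Z, rose by 1.12 in KO and 1.04 in WT on the log2 scale, and Ctso was lower at 48 hr, by log2 values of -1.57 and -1.22.

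The next list held 23 genes of pathways known to act on Serpina3 genes, called regulators below, and all were tested. Of these, edgeR called 3 lower in KO at 48 hr and 2 at 0 hr, and none higher. At an unadjusted p below 0.05 it gave 6 lower and 0 higher at 48 hr, and 7 lower and 1 higher at 0 hr, and DESeq2 called 5 lower at 48 hr and 4 at 0 hr, and none higher. The list names the interferon gamma and IL-6 family receptors, their JAK, STAT and SOCS proteins, NF-kB subunits, C/EBP factors and the glucocorticoid receptor. It also holds Irf1, Irf8, Irf9, Tbx21 and the glucocorticoid-induced Tsc22d3. That each of them acts on Serpina3 genes was not shown here, and the list was chosen with results of these data known. Irf9, the DNA-binding partner of STAT proteins in the response to type I interferon, was at 74.8 ± 0.85 CPM in KO 0 hr against 115 ± 9.43 CPM in WT 0 hr (log2 -0.62, edgeR adjusted p = 0.0076). Irf1, an interferon gamma target and itself an activator, was at 156 ± 18.6 CPM in KO 0 hr against 222 ± 17.3 CPM in WT 0 hr (log2 -0.51, adjusted p = 0.044). Fitted on the 6 libraries of 0 hr alone, neither was called, at adjusted p = 0.077 for Irf9 and 0.24 for Irf1.

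At 48 hr Irf1 was again lower, at 95.9 ± 6.39 CPM in KO against 146 ± 8.4 CPM in WT (log2 -0.61, edgeR adjusted p = 0.013). Ifngr2, a chain of the interferon gamma receptor, was at 213 ± 26.6 CPM in KO 48 hr against 293 ± 12.7 CPM in WT 48 hr (log2 -0.46, adjusted p = 0.035). Tsc22d3, the glucocorticoid-induced leucine zipper, was at 18.9 ± 3.84 CPM in KO 48 hr against 28.1 ± 2.01 CPM in WT 48 hr (log2 -0.57, adjusted p = 0.044).

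Of these 5 calls, 4 ended when single libraries were left out. The Irf1 call at 48 hr ended without KO 48 hr replicate 10 (edgeR adjusted p = 0.078), KO 48 hr replicate 11 (0.067) or WT 48 hr replicate 7 (0.075). At 0 hr the Irf1 call ended in 10 of 12 such fits, with adjusted p of at most 0.13, all but those without KO 0 hr replicate 5 or KO 48 hr replicate 12, and with no low-count filter (0.052). The Ifngr2 call ended in 7, with adjusted p of at most 0.17, those without replicate 10 or 11 of KO 48 hr, replicate 1 or 3 of WT 0 hr, or any of the 3 libraries of WT 48 hr. The Tsc22d3 call ended in 8, with adjusted p of at most 0.20, those without replicate 10 or 11 of KO 48 hr or any of the 6 WT libraries, and in the 6 libraries of 48 hr alone (0.088). Irf9 at 0 hr was called in all 12. The median log2 difference over the 23 regulators was -0.13 at 48 hr and -0.18 at 0 hr. Whether these regulators bear on the Serpina3 genes was not tested.

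Over time the regulators changed in both directions, 7 higher and 9 lower in KO and 6 higher and 9 lower in WT. Socs1, a feedback inhibitor of cytokine signals, rose by 3.26 in KO and 3.21 in WT on the log2 scale. Tsc22d3 was lower at 48 hr by log2 values of -5.40 in KO and -4.86 in WT, and Tbx21, encoding the factor T-bet, by -2.72 and -2.76. Of the 66 tested genes of the 4 lists, edgeR called none for a difference in time change between the genotypes, and 7 had an unadjusted p below 0.05.

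The genes whose pattern was most like that of Serpina3f and Serpina3g were looked up among 10088 genes with a mean of at least 5 CPM, by Pearson's r of log2(CPM + 1) over the 12 libraries. The points are 12 libraries of 4 groups, made by 1 protocol, and the values carry no test. Gbp6, an interferon-induced guanylate-binding protein, was first for both, with r = 0.974 to Serpina3f and r = 0.982 to Serpina3g. It had 22.3, 28.4 and 31.0 CPM in KO 48 hr, against 66.5, 71.8 and 64.0 CPM in WT 48 hr. Unstimulated, it had 5.89, 10.7 and 9.86 CPM in KO libraries, and 19.5, 26.6 and 22.2 CPM in WT libraries. In scaled CPM its KO 48 hr libraries overlapped WT 0 hr, as those of both serpins did.

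For Serpina3f the next were Chst10, a sulfotransferase (r = 0.968), Hyou1, a chaperone of the endoplasmic reticulum (0.959), Tgtp2, an interferon-induced GTPase (0.956), and Lgals3bp, a secreted galectin-binding protein (0.956). For Serpina3g they were Lpcat1, a phospholipid acyltransferase (0.961), Ahcy, which breaks down S-adenosylhomocysteine (0.955), Pgap2, a factor of lipid anchor remodelling (0.953), and Kynu, kynureninase (0.950). Gbp6 stayed among the 5 for both serpins in all 12 repeats that left out a library, and Chst10 for Serpina3f. The others stayed in 5 to 10 of 12, and the fewest of the 5 remained for Serpina3g without KO 48 hr replicate 12, which kept 1, and for Serpina3f without KO 0 hr replicate 6, which kept 2.

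**Figure D5:**
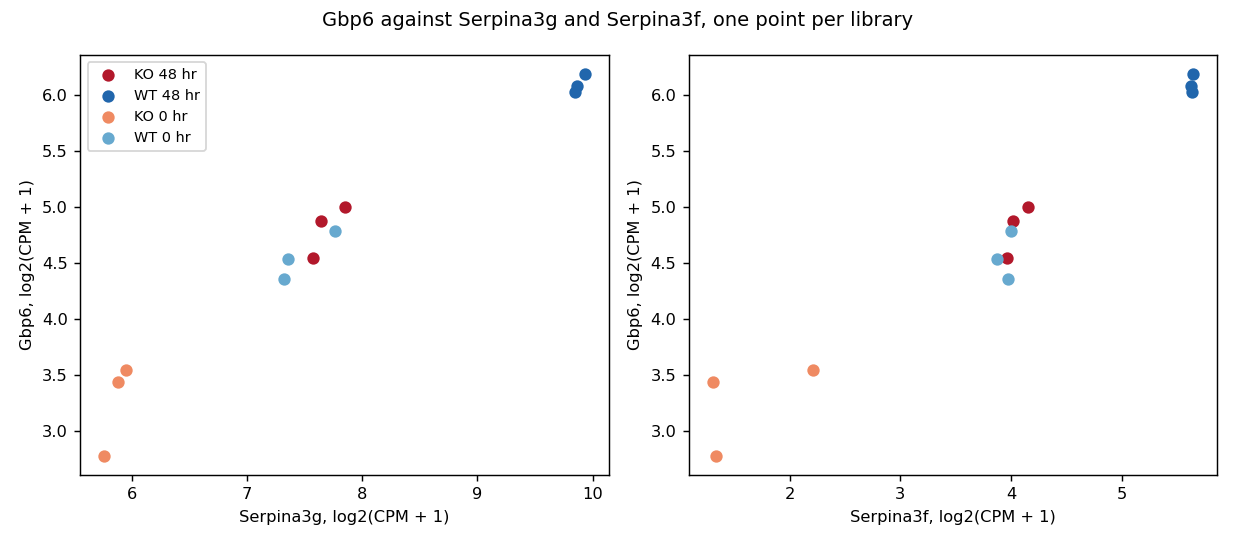
Gbp6 (vertical axes) against Serpina3g and Serpina3f (horizontal axes), all as log2(CPM + 1), with a point for each library. KO 48 hr and WT 0 hr lie together between KO 0 hr at the low end and WT 48 hr at the high end.

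Among themselves, Serpina3f and Serpina3g had r = 0.964 over the 12 libraries, Serpina3g and Serpina3i 0.911, and Serpina3i and Serpina3n 0.973. Serpina3m had r of -0.625 to -0.17 with the others, on few counts. These too are descriptions with no test.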

How the data were processed

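Values are estimated counts of transcripts in each library, which the authors deposited as whole numbers. Per the labels' protocols, amplification used a SMART-Seq kit, which does not mark strand, and reads were paired, of 50 bases. Per the submitters' processing notes, bcl2fastq 2.20.0.422, Trimmomatic 0.36, Salmon 0.8.2 and DESeq2 1.14.1 were used with the mm10 build. Salmon divides reads among similar transcripts.

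Counts were summed to gene symbols after spaces around 344 names were trimmed. Genes were filtered with filterByExpr and scaled with TMM (trimmed means of M values). The factors were 0.723 to 0.766 at 48 hr and 1.28 to 1.42 at 0 hr, so levels compared between the times depend on them. The 4 groups entered a single model in edgeR 4.0.16 under R 4.3.3, tested by robust quasi-likelihood F tests on 8 residual degrees of freedom. CPM uses the scaled library sizes. No pair of libraries, of 66, held identical values. Intervals of count ratios are exact binomial 95% intervals, cover counting error only, and ignore reads copied by PCR.

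Members and gene lists were chosen with earlier results of these data known, and 2 listed genes are not reported here. Besides the members, the genes named are those called from each list between genotypes, the 3 with the largest change over time at 5 CPM or more, and the 5 most similar patterns. Ctsb and Serpinb9 outside their called comparisons, Dicer1, Ifi27l2a, Asb2 and Glrx5 were named after their values were seen. Alternatives were DESeq2 1.42.0, relative log expression scaling, no filter, at least 1 CPM in 3 libraries, the 6 libraries of a contrast, single transcripts, and leaving out each library. The steps were tested on simulated data. Windows and identities were computed with Biopython 1.88, and figures drawn with matplotlib 3.10.9.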

Additional observations from a re-analysis of the deposited data

How the results depend on the processing

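No paired analysis was possible because the replicate numbers, 1 to 12, differ between all groups. Among the fitted members and the list genes that edgeR called between genotypes, no fitted log2 value changed sign under an alternative. Other genes were not compared in this way. Serpina3m was not fitted, and its WT mean at 48 hr was 0.0172 CPM, or 0 without WT 48 hr replicate 7, against 0.00586 CPM at 0 hr. The number of genes called between KO and WT at 48 hr was 386, with 1052 by DESeq2 and 136 to 1080 when a library was left out. The highest was without KO 48 hr replicate 12, and the number was 136, 141 or 152 without a WT 48 hr library and 146 or 144 without KO 48 hr replicate 10 or 11. At 0 hr it was 212, with 631 by DESeq2, 75 in the 6 libraries alone and 79 to 426 when a library was left out. The highest was without KO 0 hr replicate 6, and those lower by over 1.5 times were 107, 137 and 79 without WT 0 hr replicates 1, 2 and 3 and 135 without WT 48 hr replicate 7. Of the genes called at 48 hr, 73.1% were higher in KO by edgeR, 63.8% with relative log expression scaling and 55.6% by DESeq2. The numbers called over time were 12681 to 13671 in KO and 13047 to 14345 in WT when a library was left out. The cause was not tested.

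Leaving out single libraries, the log2 change over time ran in KO from 2.59 to 3.37 for Serpina3f, from 1.77 to 1.91 for Serpina3g, from 0.69 to 1.84 for Serpina3i and from -4.66 to -0.21 for Serpina3n. In WT it ran from 1.72 to 1.79, from 2.32 to 2.56, from 2.45 to 3.10 and from 3.25 to 3.72 for the same genes. The log2 difference of KO from WT at 48 hr ran from -1.71 to -1.61 for Serpina3f, from -2.28 to -2.14 for Serpina3g, from -4.60 to -4.13 for Serpina3i and from -8.88 to -4.83 for Serpina3n. The -8.88, and the -4.66 over time in KO, are without KO 48 hr replicate 12. There that group has no count and both fitted values depend on the prior count. At 0 hr it ran from -3.26 to -2.47, from -1.73 to -1.49, from -3.44 to -2.19 and from -1.78 to -0.33.

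By single transcripts, the change of Serpina3f over time was not called for uc007owx.2 (2.10) and uc007owy.2 (1.33) in KO, nor for uc007oww.2 (1.66), uc007owx.2 (4.52) and uc007owy.2 (0.48) in WT. Its difference of KO from WT at 48 hr was -0.63, -5.22 and -1.94 for uc007oww.2, uc007owx.2 and uc007owy.2. For Serpina3g the rows uc007oxa.2 and uc029rxs.1 gave -0.21 and -2.85 at 48 hr and -0.83 and -1.92 at 0 hr. The stricter filter left out Serpina3n and Serpina3h. The fits of 6 libraries left out Serpina3i over time in KO, Serpina3n over time in KO and between genotypes at 0 hr, and Serpina3h at 0 hr. The low counts of Serpina3i, Serpina3m and Serpina3n limit what can be said of them.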
